A study of Mus musculus with 4 samples.

Results

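The genes described here are 8 Wnt ligands, Wnt4, Wnt5a, Wnt5b, Wnt9a, Wnt11, Wnt16, Wnt10b and Wnt2b, and Axin2, a feedback target of the Wnt pathway, in cells of the developing mouse knee joint. They were given as a list of names, and they are 9 of the 32285 genes counted in each library. All 9 had UMIs (unique molecular identifiers, each a counted transcript) in all 4 libraries.

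Single cells from the presumptive knee region of embryonic hindlimbs were counted with a droplet method that reads transcript 3′ ends. The 4 libraries came from an E13.5 control and an E14.5 control, both titled WT and given as no Cre, and from 2 E14.5 mutants. The first mutant carries the label Prx1Cre;Glut1f/f;Glut3f/+, for removal of the glucose transporter Glut1 with 1 floxed Glut3 allele, and the other is Prx1Cre;Glut1f/f;Glut3f/f, named DCKO, for removal of both transporters. Prx1Cre acts in limb mesenchyme, so cells of blood, vessel, nerve and muscle lineage lie outside its usual domain. No treatment was given, and whether the controls carried floxed alleles and how many embryos were pooled per library are not given in the sources used here. Values given for all 4 libraries follow the order E13.5 control, E14.5 control, Glut3f/+ library and DCKO library. Each condition had 1 library, so no replicate check was possible, and every interval below is a 95% interval that covers counting error only.

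The libraries held 100344565, 84188147, 97110697 and 91574038 UMIs in 12769, 9707, 11690 and 11602 barcodes. Keeping cells in which 200 to 6000 genes were detected and mitochondrial genes gave no more than 10% of UMIs left 12446, 9305, 11264 and 11305 cells with medians of 6176.5, 7279, 6757 and 6379 UMIs. Pairs of libraries shared between 24 and 37 kept barcodes. Levels are CPM, the UMIs of a gene summed over a cell class and scaled to an equal total, and these 3′ counts are not divided by transcript length.

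Some library properties went against the labels or moved with them. Slc2a1, the gene of Glut1, had 50.8, 67.8, 365 and 439 CPM over all skeletal cells, so its UMIs were higher and not lower in both mutant libraries than in the E14.5 control. The log2 ratio to that control was 2.43 (2.39 to 2.47) in the Glut3f/+ library and 2.69 (2.65 to 2.74) in the DCKO library. Counts at the 3′ end do not check a deletion in another part of the gene, and the exons removed are not given in the sources used here. Slc2a3, the gene of Glut3, had 5.29, 3.48, 4.27 and 2.39 CPM over the same cells. Sex also differed between the libraries. Xist UMIs were found in 64.7, 0.172, 92.2 and 91.2% of cells and UMIs of Y-linked genes in 18.4, 65.9, 0.0355 and 0.0265%. The E13.5 control therefore held cells of both sexes, the E14.5 control was almost all male and both mutant libraries were almost all female, so sex and genotype cannot be told apart.

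Cells were sorted into classes by marker UMIs. Of 10531, 8547, 10188 and 10625 skeletal cells, the 2378, 1301, 1473 and 868 with at least 1 UMI of Gdf5, the growth factor that marks the joint interzone, form the Gdf5-positive class, or 22.6, 15.2, 14.46 and 8.17% of skeletal cells. In droplet counts a cell with 0 Gdf5 UMIs can still express the gene, so the other classes may hold interzone cells. A background Gdf5 UMI can also place a cell in the class, so these shares are not limits in either direction. The remaining skeletal cells were gated as prehypertrophic or hypertrophic chondrocytes (an Ihh or Col10a1 UMI), Matn1-positive or Matn1-negative chondrocytes, tendon, osteogenic, Dcn-positive fibroblast, Sfrp2-positive mesenchyme and other mesenchyme. The first 3 are pooled below as chondrocyte-gated and the last 5 as mesenchyme-gated cells. The make-up of these pools differed between libraries, since Matn1-positive chondrocytes were 13.3, 47.7, 41.0 and 48.8% of skeletal cells, so ratios between pools are given with those of single classes.

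The Gdf5-positive class is a range and not a pure type. Exactly 1 Gdf5 UMI was counted in 956, 713, 859 and 646 of its cells. Osr2, another interzone marker, had 328, 197, 165 and 70.9 CPM in it, and Col2a1, the main cartilage collagen, had 1108, 2662, 3282 and 3400 CPM. The share of these cells that also met the chondrocyte gate was 73.8, 49.96, 66.5 and 72.7%. That gate asks for chondrocyte markers and for more UMIs of these than of fibroblast markers. Myog, a muscle marker, was near 0 in the class at 1.86, 0.448, 0.988 and 0.262 CPM. A Gdf5 UMI was also found in 6.90, 4.35, 5.97 and 0% of erythroid cells, which should lack the gene, and 0 of 42 cells in the last library allows up to 7.14%, taking 3 counts as the limit of a count of 0. Medians of 5, 5, 5 and 3 interzone markers per Gdf5-positive cell show the DCKO library apart from the others.

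Wnt ligands are secreted lipid-modified glycoproteins that bind Frizzled receptors. Some act through LRP co-receptors to stabilise β-catenin, which with TCF and LEF factors turns on targets that include Axin2, and others act through Ror receptors and planar polarity or calcium without it. In the limb, β-catenin signalling in the future joint holds back cartilage formation, Wnt9a and Wnt4 are classic interzone ligands, and Wnt5a, Wnt5b and Wnt11 are known for roles in limb outgrowth and cartilage maturation.

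Wnt4 (ENSMUSG00000036856, GRCm38 4:137277489-137299726), a ligand of the interzone and of maturing cartilage, had 122 CPM (117 to 127), 86.7 (81.3 to 92.4), 99.5 (94.0 to 105) and 79.0 (72.9 to 85.6) in Gdf5-positive cells. Its level in prehypertrophic or hypertrophic cells was 147 (139 to 155), 113 (105 to 122), 175 (167 to 184) and 155 (148 to 162) CPM. In each library these cells were highest and the Gdf5-positive cells second, with intervals apart. Sfrp2-positive mesenchyme held 52.5, 72.9, 61.2 and 56.2 CPM of Wnt4, and Matn1-positive chondrocytes held 46.0, 48.6, 52.3 and 49.6. The lower end was formed by tendon (24.0, 25.6, 28.0 and 15), osteogenic cells (13.8, 20.2, 27.1 and 14.4), Dcn-positive fibroblasts (16.6, 23.4, 25.5 and 20.8) and other mesenchyme (20.6, 21, 18.4 and 12.2). Differentiating muscle had 18.6, 6.13, 20.2 and 4.22 CPM of Wnt4, and macrophages had 15, 17.7 and 20.8 in the last 3 libraries. The 4 low classes lay near the muscle level in the E13.5 control and the Glut3f/+ library, above it with intervals apart in the E14.5 control, and above it in the DCKO library, where muscle had 3 UMIs. Of the 8 neighbouring pairs in the order of the 9 classes, 5, 4, 4 and 4 had overlapping intervals.

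The Gdf5-positive cells held 40.9, 22.8, 20.8 and 11.3% of all skeletal Wnt4 UMIs while holding 24.0, 15.2, 14.49 and 8.99% of skeletal UMIs of all genes. At E13.5 Wnt4 went up with the Gdf5 count of a cell, from 55.4 CPM in skeletal cells without Gdf5 UMIs to 94.6 with 1, 136 with 2 to 4 and 142 with 5 or more. The last 2 intervals overlapped. At E14.5 the control gave 52.9, 86.0, 85.0 and 96.0 CPM over the same steps, where the 3 groups with Gdf5 UMIs overlapped.

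Wnt5a (ENSMUSG00000021994, GRCm38 14:28504750-28527448), a ligand that acts mostly without β-catenin and is needed for limb outgrowth, was highest in osteogenic cells at 143 CPM (132 to 156), 129 (110 to 149), 147 (130 to 166) and 157 (138 to 178). Other mesenchyme followed with 116, 107, 93.9 and 105 CPM, and the intervals of this pair overlapped in the E14.5 control and were apart in the other 3 libraries. In Gdf5-positive cells Wnt5a had 42.3 CPM (39.4 to 45.4), 25.8 (22.9 to 29.0), 28.0 (25.1 to 31.1) and 23.6 (20.3 to 27.3). That was the lowest of the 9 classes at E13.5, and in the 3 E14.5 libraries Matn1-positive chondrocytes were lowest. Erythroid cells had 19.2, 1.15 and 22.1 CPM of Wnt5a in the first 3 libraries. The Gdf5-positive level at E13.5 stood above the erythroid level, and that of the Glut3f/+ library stood close to it. The erythroid level of the Glut3f/+ library came from only 67 cells. It is the level of a single class and does not set the background of the library. In the order of Wnt5a levels 4 or 5 of the 8 neighbouring pairs had overlapping intervals.

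The osteogenic cells were 3.92, 1.76, 2.27 and 1.94% of skeletal cells and held 9.78, 7.80, 8.41 and 9.38% of the skeletal Wnt5a UMIs. Wnt5a was high in the mesenchyme-gated classes in general. Tendon had 68.4, 53.4, 64.8 and 74.6 CPM, Dcn-positive fibroblasts 73.1, 51.4, 47.6 and 45.2, and Sfrp2-positive mesenchyme 78.4, 58.9, 54.6 and 66.7. Among chondrocytes the level of Wnt5a differed between the 2 control libraries, which differ in age and in sex. At E13.5 prehypertrophic or hypertrophic cells had 105 CPM, Matn1-positive 54.3 and Matn1-negative 57.4, against 51.9, 16.6 and 23.3 in the E14.5 control.

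Wnt5b (ENSMUSG00000030170, GRCm38 6:119432531-119544347), a close relative of Wnt5a that is known from prehypertrophic cartilage, had 17.4 CPM (15.6 to 19.4), 12.4 (10.4 to 14.6), 10.1 (8.41 to 12.1) and 9.70 (7.62 to 12.2) in Gdf5-positive cells. Matn1-positive chondrocytes had the lowest level at 8.13, 7.89, 5.32 and 5.05 CPM, and the highest levels were in Dcn-positive fibroblasts at E13.5 (19.0), in Sfrp2-positive mesenchyme in the E14.5 control (22.6) and in tendon in both mutant libraries (18.0 and 18.1). All 8 neighbouring pairs overlapped in each library, while the lowest and the highest class had intervals apart in each. Differentiating muscle held 6.95, 5.69, 3.56 and 4.22 CPM of Wnt5b, which makes the level in Matn1-positive chondrocytes hard to tell from background.

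Wnt9a (ENSMUSG00000000126, GRCm38 11:59306928-59333552), the ligand most closely tied to the start of joint formation, was sparse. Gdf5-positive cells had 7.43 CPM (6.25 to 8.77), 6.19 (4.82 to 7.83), 5.18 (3.98 to 6.63) and 3.67 (2.44 to 5.30), from 140, 69, 63 and 28 UMIs. The mesenchyme-gated cells had 6.76, 8.58, 10.0 and 6.17 CPM and the chondrocyte-gated cells 2.47, 1.58, 2.03 and 1.53. Prehypertrophic or hypertrophic cells were lowest in all 4 libraries (0.880, 0.636, 0.648 and 0.928 CPM), below the 2.55, 3.94, 3.85 and 2.82 CPM of differentiating muscle, while Matn1-negative chondrocytes had 4.56, 4.83, 4.89 and 3.03. The Gdf5-positive level of Wnt9a was above muscle with intervals apart at E13.5. In the 3 E14.5 libraries the 2 intervals overlapped, so the Gdf5-positive level could not be told from the muscle level there. Muscle was not the lowest level, since chondrocyte-gated cells were below it. Against chondrocyte-gated cells the log2 ratios of Gdf5-positive cells in the E14.5 libraries were 1.97 (1.48 to 2.46), 1.36 (0.88 to 1.82) and 1.26 (0.60 to 1.88). Tendon had the highest class level in the E14.5 control at 14.6 CPM (11.0 to 18.9), and Dcn-positive fibroblasts were high in the other libraries at 7.81, 12 and 7.74. Between 6 and 8 of the 8 neighbouring pairs overlapped.

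Wnt11 (ENSMUSG00000015957, GRCm38 7:98835112-98855195), a ligand that acts mostly without β-catenin, had 16.8 CPM (15 to 18.7), 17.7 (15.3 to 20.3), 15 (12.9 to 17.3) and 8.13 (6.23 to 10.4) in Gdf5-positive cells. The first 3 intervals overlapped and the DCKO library lay below them. Dcn-positive fibroblasts had 29.3, 23.4, 24.0 and 25.3 CPM of Wnt11 and Sfrp2-positive mesenchyme had 18.1, 32.8, 25.0 and 16.9, and these 2 classes were the upper end of the order. Matn1-positive chondrocytes were lowest at 4.11, 3.11, 2.71 and 1.86 CPM. Erythroid cells had 4.01, 2.30 and 4.73 CPM in the first 3 libraries, on only 5, 2 and 3 UMIs. Differentiating muscle had 4.115, 0.438, 2.96 and 2.82 CPM, and only in the E14.5 control was its interval apart from that of Matn1-positive chondrocytes. Neighbouring intervals overlapped in 7, 7, 8 and 8 of 8 pairs.

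Wnt16 (ENSMUSG00000029671, GRCm38 6:22288227-22298522), a ligand known from joints and bone, had only 73, 40, 49 and 57 UMIs in all kept cells. Osteogenic cells had the highest level in the Glut3f/+ library at 9.82 CPM (5.72 to 15.7, 17 UMIs), against 2.12, 2.17 and 5.22 CPM in the other libraries in order. Gdf5-positive cells had 0.690, 0.628, 0.988 and 0.655 CPM from 13, 7, 12 and 5 UMIs. Mesenchyme-gated cells had 1.46, 1.93, 1.84 and 3.58 CPM of Wnt16, and chondrocyte-gated cells 0.454, 0.0832, 0.0563 and 0.123. The rest of the ligands were rarer still. Wnt10b (ENSMUSG00000022996, GRCm38 15:98770712-98778150), known for a role in bone formation, had 7, 8, 16 and 16 UMIs, of which 4, 6, 7 and 9 lay in prehypertrophic or hypertrophic cells and 0, 0, 4 and 2 in Gdf5-positive cells. Wnt2b (ENSMUSG00000027840, GRCm38 3:104945272-104961921), a ligand that acts through β-catenin, had 12, 3, 14 and 7 UMIs, with 3, 1, 3 and 0 in Gdf5-positive cells. The Wnt10b level in prehypertrophic or hypertrophic cells was above that in Matn1-positive chondrocytes, with intervals apart, in the E14.5 control and both mutant libraries. In the E14.5 control it was also above the Gdf5-positive level with intervals apart. In the E13.5 control these intervals overlapped. A full order of the classes could not be given for Wnt10b at this depth, and no class could be ordered for Wnt2b.

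Axin2 (ENSMUSG00000000142, GRCm38 11:108920349-108950783), a scaffold of the β-catenin destruction complex that is itself switched on by β-catenin, had 7.12 CPM (5.96 to 8.43), 8.79 (7.14 to 10.7), 7.74 (6.25 to 9.47) and 11.0 (8.78 to 13.6) in Gdf5-positive cells. Only the E13.5 control and the DCKO library had intervals apart. In prehypertrophic or hypertrophic cells Axin2 had 19.9 CPM (17.1 to 23.0), 8.75 (6.59 to 11.4), 6.70 (5.14 to 8.59) and 3.54 (2.55 to 4.79). This was the highest class at E13.5, apart from Matn1-positive chondrocytes, the next class, at 10.4 CPM. Other mesenchyme was the highest class in the DCKO library, at 17.6 CPM (11.5 to 25.8), against 8.14, 8.26 and 3.6 in the other libraries. Differentiating muscle had 5.53, 4.81, 5.63 and 5.63 CPM of Axin2. At E13.5 Sfrp2-positive mesenchyme (5.70) and Dcn-positive fibroblasts (5.89) were near the muscle level. In 7, 8, 8 and 7 of the 8 neighbouring pairs the intervals overlapped, but classes further apart in the order could differ beyond their intervals. In the DCKO library Matn1-positive chondrocytes had 3.81 CPM (3.26 to 4.43), below Sfrp2-positive mesenchyme at 10.1 (7.28 to 13.6) and below Gdf5-positive cells.

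**Figure D1:**
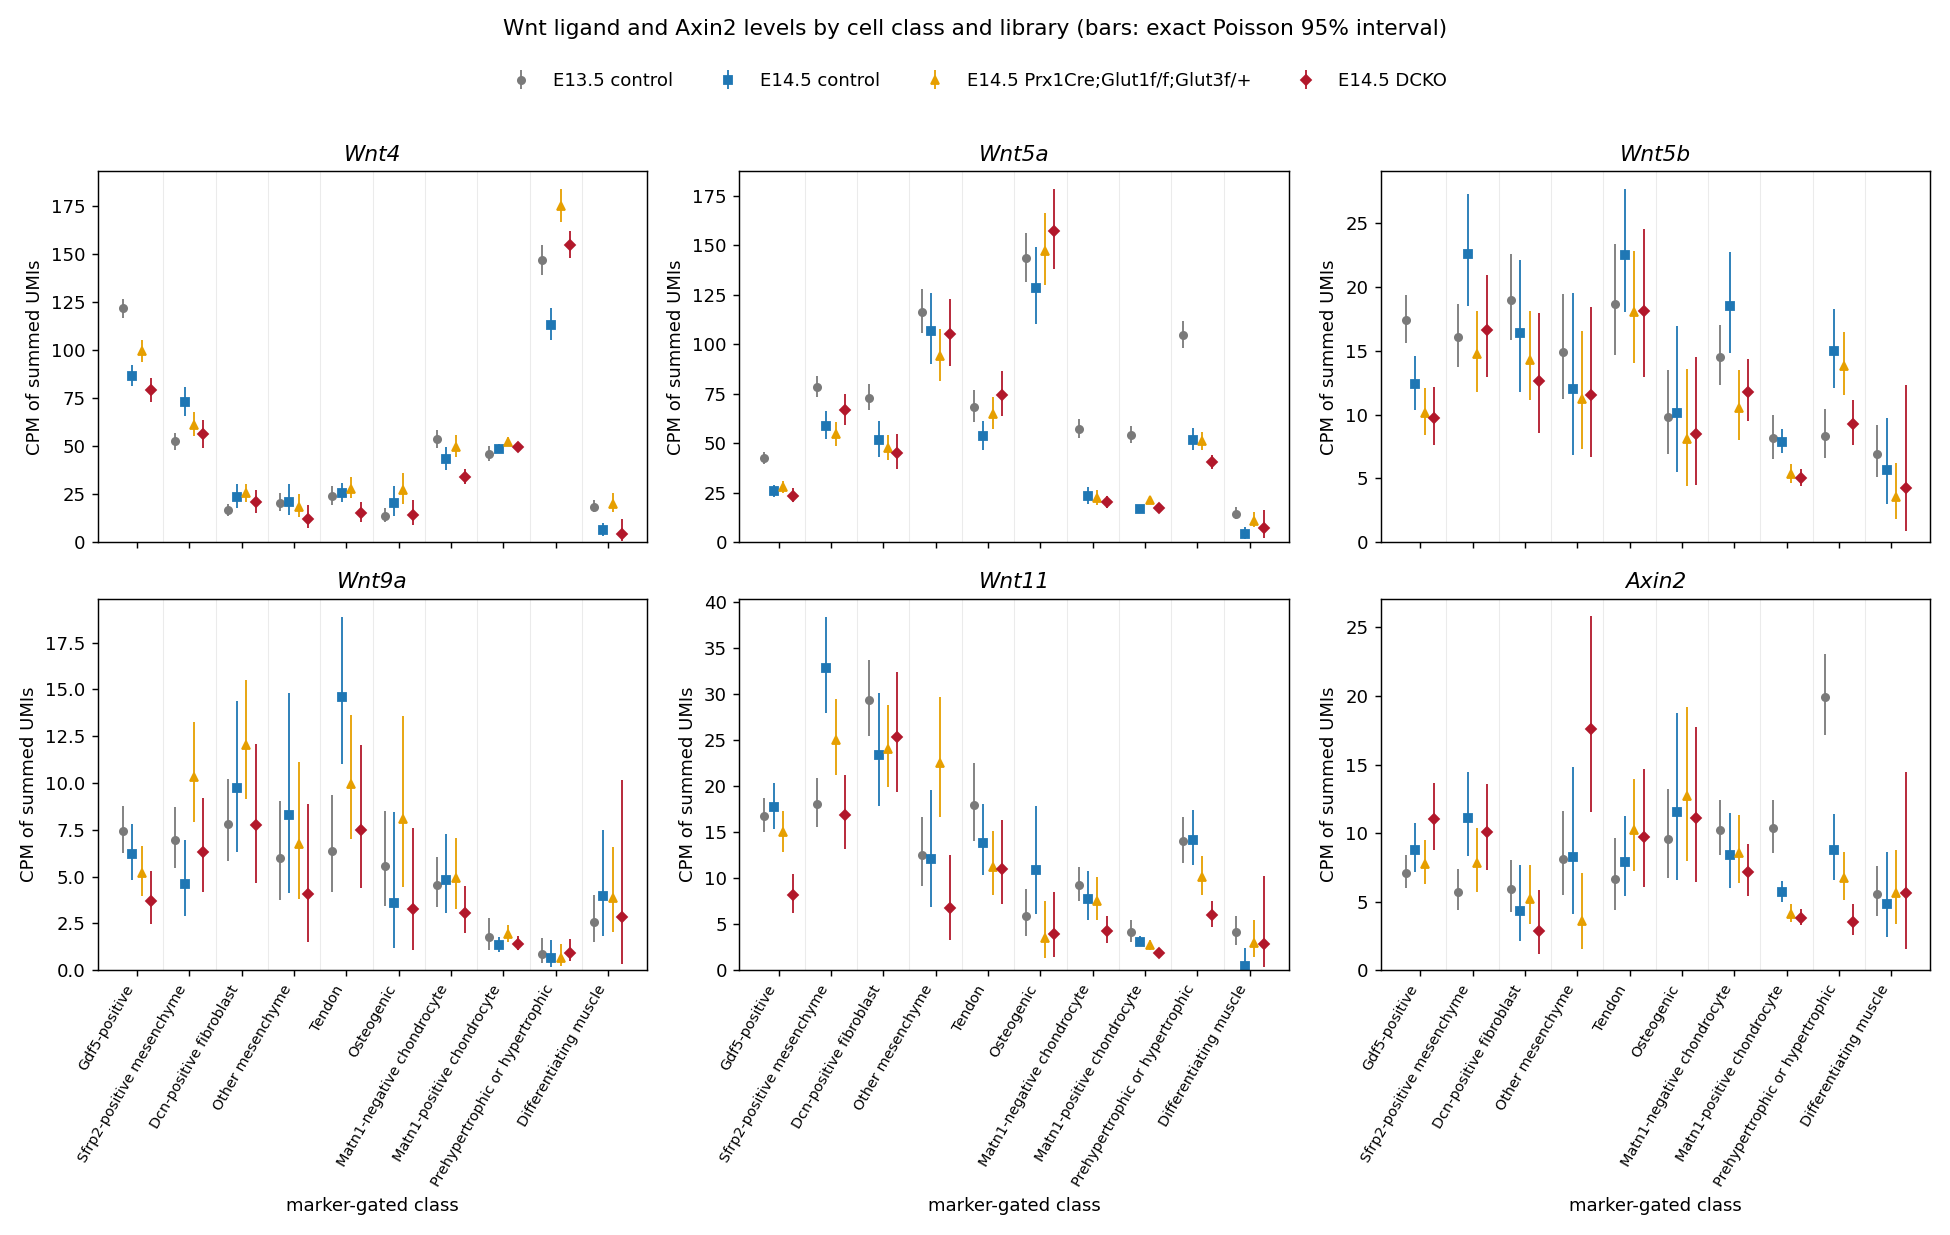
CPM of Wnt4, Wnt5a, Wnt5b, Wnt9a, Wnt11 and Axin2 in the 9 skeletal classes and differentiating muscle, with a point for each of the 4 libraries and bars for the exact Poisson 95% interval. Wnt4 is highest in prehypertrophic or hypertrophic cells and second in Gdf5-positive cells in all 4 libraries, and Wnt5a is highest in osteogenic cells.

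As a share of cells, Wnt4 had at least 1 UMI in 37.0% (35.1 to 39.0, exact Clopper-Pearson), 30.4% (27.9 to 32.9), 32.7% (30.3 to 35.2) and 31.0% (27.9 to 34.2) of Gdf5-positive cells, which had medians of 6191, 6774, 6419 and 6855 UMIs. Erythroid cells, deeper at medians of 7604, 8856, 8030 and 7893.5, had Wnt4 in 4.83, 5.43, 8.96 and 7.14%. At an equal depth of 2000 UMIs per cell the Gdf5-positive shares were 17.8, 13.2, 15 and 12.5% and the erythroid shares 1.68, 0.854, 2.40 and 1.12%, with 45, 25, 24 and 12 shallower Gdf5-positive cells and 6, 1, 5 and 3 erythroid cells left out. Wnt4 was therefore well above this background. At the same depth Wnt5a was found in 6.92, 4.78, 5.10 and 4.42% of Gdf5-positive cells and in 25.2, 22.1, 24.5 and 28.4% of osteogenic cells. Erythroid cells gave 2.32, 0.0883, 3.52 and 1.81% for Wnt5a, which is nearest to the Gdf5-positive share in the Glut3f/+ library. Wnt9a reached 1.55, 1.64, 1.05 and 0.984% of Gdf5-positive cells at that depth and Wnt11 reached 3.6, 4.67, 3.44 and 2.34%. Without thinning Wnt9a was in 5.59, 5.15, 3.26 and 3.11% of them against 0.690, 1.09, 1.49 and 0% of erythroid cells, and Axin2 in 5.05, 6.46, 5.50 and 7.60% against 2.76, 0, 1.49 and 2.38%. With a limit of 3 counts in place of 0, which is not the Clopper-Pearson bound, 0 of 42 erythroid cells of the DCKO library allows a share of cells with a Wnt9a UMI of up to 7.14%, and 0 of 92 in the E14.5 control allows up to 3.26% for Axin2.

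Gdf5-positive cells were next compared with all other skeletal cells of the same library, which asks which of these genes marked the interzone class. A gene was called where the ratio passed 1.5-fold with at least 20 UMIs in either group, and 7 of the 9 members had enough UMIs. In the E13.5 control 2 members, Wnt4 and Wnt9a, were called higher beside 8.3% of all genes, and 1, Wnt5a, was called lower beside 9.33%. The E14.5 control had 3 called higher, Wnt4, Wnt9a and Wnt11, beside 12.1%, and 0 lower beside 8.33%. In the Glut3f/+ library Wnt4, Wnt11 and Wnt16 were the 3 called higher, beside 8.72%, with 0 lower beside 8.87%. The DCKO library had Wnt9a, Wnt11 and Axin2 as its 3 higher genes beside 10.1%, and 0 lower beside 6.73%. The shares called higher exceeded these backgrounds but rest on 2 or 3 genes each. Median log2 ratios of the 7 members were 0.32, 0.35, 0.44 and 0.37, against 0.00, 0.08, 0.05 and 0.09 over all genes.

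Wnt4 had 122 CPM in Gdf5-positive and 55.4 in other skeletal cells at E13.5, a log2 ratio of 1.14 (1.06 to 1.21). The ratio was 0.71 (0.61 to 0.82) in the E14.5 control and 0.64 (0.55 to 0.73) in the Glut3f/+ library. In the DCKO library Wnt4 stood at 79.0 against 61.1 CPM, 0.37 (0.25 to 0.49), which did not pass the threshold, though the mean of CPM over single cells gave 0.62 and did. Wnt4 was therefore higher in the Gdf5-positive class in all 4 libraries with intervals above 0. Wnt9a was at 7.43 against 4.54 CPM at E13.5 and at 6.19 against 3.16 in the E14.5 control, with log2 ratios of 0.71 (0.41 to 1.01) and 0.97 (0.55 to 1.37). Its ratio was 0.34 (−0.08 to 0.74) in the Glut3f/+ library and 0.70 (0.07 to 1.29) in the DCKO library.

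Wnt11 gave 0.32 (0.13 to 0.51) at E13.5, where 16.8 stood against 13.4 CPM, and 1.01 (0.77 to 1.25) in the E14.5 control, where 17.7 stood against 8.75. The mutant libraries gave 0.83 (0.59 to 1.07) and 0.78 (0.37 to 1.17) for Wnt11. The higher ratios of Wnt11 in the E14.5 libraries went with a lower level in the other skeletal cells, at 8.75, 8.41 and 4.73 CPM, and with the larger share of Matn1-positive chondrocytes in them, the class lowest in Wnt11. The part of that share was not tested. Wnt5a was lower in Gdf5-positive cells in all 4 libraries, at −0.91 (−1.02 to −0.80), −0.31 (−0.50 to −0.14), −0.42 (−0.59 to −0.26) and −0.39 (−0.62 to −0.17), and only the first passed the threshold. With at least 2 Gdf5 UMIs per cell the Wnt5a ratio in the Glut3f/+ library was −0.73 and passed it.

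Wnt5b had log2 ratios of 0.40, 0.05, 0.15 and 0.30 and was called against all other skeletal cells in 0 of the 4 libraries, and TMM scaling turned the E14.5 control value to −0.03. Wnt16 was at 0.94 (−0.14 to 1.91) in the Glut3f/+ library on 12 Gdf5-positive UMIs, and the call ended with the mean of CPM over single cells (0.45) and with at least 1000 genes and at most 5% mitochondrial UMIs per cell (0.53). Axin2 had log2 ratios to the other skeletal cells of −0.49 (−0.78 to −0.22), 0.35 (0.02 to 0.67), 0.44 (0.10 to 0.77) and 1.13 (0.77 to 1.48). In CPM that was 7.12 against 10.0 in the E13.5 control and 11.0 against 5.02 in the DCKO library. With at least 2 Gdf5 UMIs the last Axin2 ratio was 1.79.

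The comparison depends on which skeletal cells stand on the other side. Against chondrocyte-gated cells alone, Wnt9a had log2 ratios of 1.59, 1.97, 1.36 and 1.26 and Wnt11 of 0.94, 1.82, 1.73 and 1.48, so both were called higher in Gdf5-positive cells in all 4 libraries. Against mesenchyme-gated cells Wnt9a had 0.14, −0.47, −0.95 and −0.75, with the last 2 called lower, and Wnt11 had −0.13, −0.29, −0.39 and −0.84, with the last called lower. Both ligands were thus above cartilage but level with or below the mesenchyme. Axin2 went from lower to higher against chondrocyte-gated cells, at −0.89, 0.47, 0.62 and 1.40, and against mesenchyme-gated cells it had 0.09, 0.01, 0.03 and 0.20 with 0 calls. Wnt16 was called lower than in mesenchyme-gated cells in all 4 libraries, at −1.08, −1.62, −0.89 (−1.98 to 0.09) and −2.45, also in the Glut3f/+ library where it was called higher than in all other skeletal cells. Wnt4 gave 0.64, 0.62, 0.44 and 0.24 against chondrocyte-gated cells, and against mesenchyme-gated cells it gave 1.98, 1.10, 1.44 and 1.38. Wnt5a was called lower than in mesenchyme-gated cells in all 4 libraries, at −1.07, −1.38, −1.29 and −1.76. Against chondrocyte-gated cells it was called lower at E13.5 (−0.73) and gave 0.24, 0.06 and 0.11 in the E14.5 libraries, within the threshold. Wnt5b was called higher than in chondrocyte-gated cells at E13.5, at 0.75 (0.52 to 0.97), and gave 0.33, 0.46 and 0.54 in the E14.5 libraries. Against mesenchyme-gated cells it had 0.11, −0.63 (−0.94 to −0.33), −0.49 and −0.57, called lower in the E14.5 control. Of all genes, 13.7, 18.4, 16.9 and 17% were called higher and 6.76, 7.31, 6.6 and 5.51% lower than in chondrocyte-gated cells. Against mesenchyme-gated cells the shares were 10.2, 9.34, 8.78 and 7.97% higher and 11.5, 12.3, 16.5 and 18.5% lower.

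Within the Gdf5-positive class, cells that met the chondrocyte gate differed from those that did not. Cells outside the gate can still hold chondrocyte markers, with as many or more UMIs of fibroblast markers. Wnt11 had 14.1 CPM (12.1 to 16.2), 10.1 (7.83 to 12.9), 10.6 (8.59 to 12.9) and 4.58 (3.05 to 6.63) in cells that met it. Cells that did not meet it had 24.3 (20.2 to 29.0), 28.3 (23.7 to 33.6), 27.8 (22.2 to 34.3) and 22.4 (15.5 to 31.3) CPM of Wnt11. The cells outside the gate were higher in all 4 libraries with intervals apart, and among themselves their 4 intervals overlapped. Wnt5a had 33.3, 20.5, 24.8 and 19.8 CPM in cells within the gate and 67.2, 33.3, 37.1 and 38.8 outside it, with intervals apart in each library.

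Wnt9a had intervals apart on the 2 sides of the gate in the E14.5 control and the Glut3f/+ library. It had 8.04 CPM within the gate and 5.77 outside at E13.5, with overlapping intervals, then 2.76 (1.64 to 4.36) and 11.0 (8.21 to 14.49) in the E14.5 control and 2.98 (1.97 to 4.34) and 11.6 (8.14 to 16.1) in the Glut3f/+ library. The DCKO library had Wnt9a at 3.11 (1.87 to 4.86) and 5.92 (2.71 to 11.2) from 19 and 9 UMIs, and the intervals overlapped. Wnt4 was much the same on both sides in the controls, 124 and 116 CPM at E13.5 and 86.3 and 87.3 at E14.5, but was higher within the gate in both mutant libraries at 109 (102 to 116) and 71.4 (62.3 to 81.4) and at 83.7 (76.6 to 91.2) and 60.5 (48.8 to 74.2). Axin2 differed beyond its intervals only in the DCKO library, at 8.35 (6.22 to 11.0) within and 21.7 (14.9 to 30.5) outside, and Wnt5b likewise at 7.86 (5.79 to 10.4) and 17.1 (11.2 to 25.1).

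**Figure D2:**
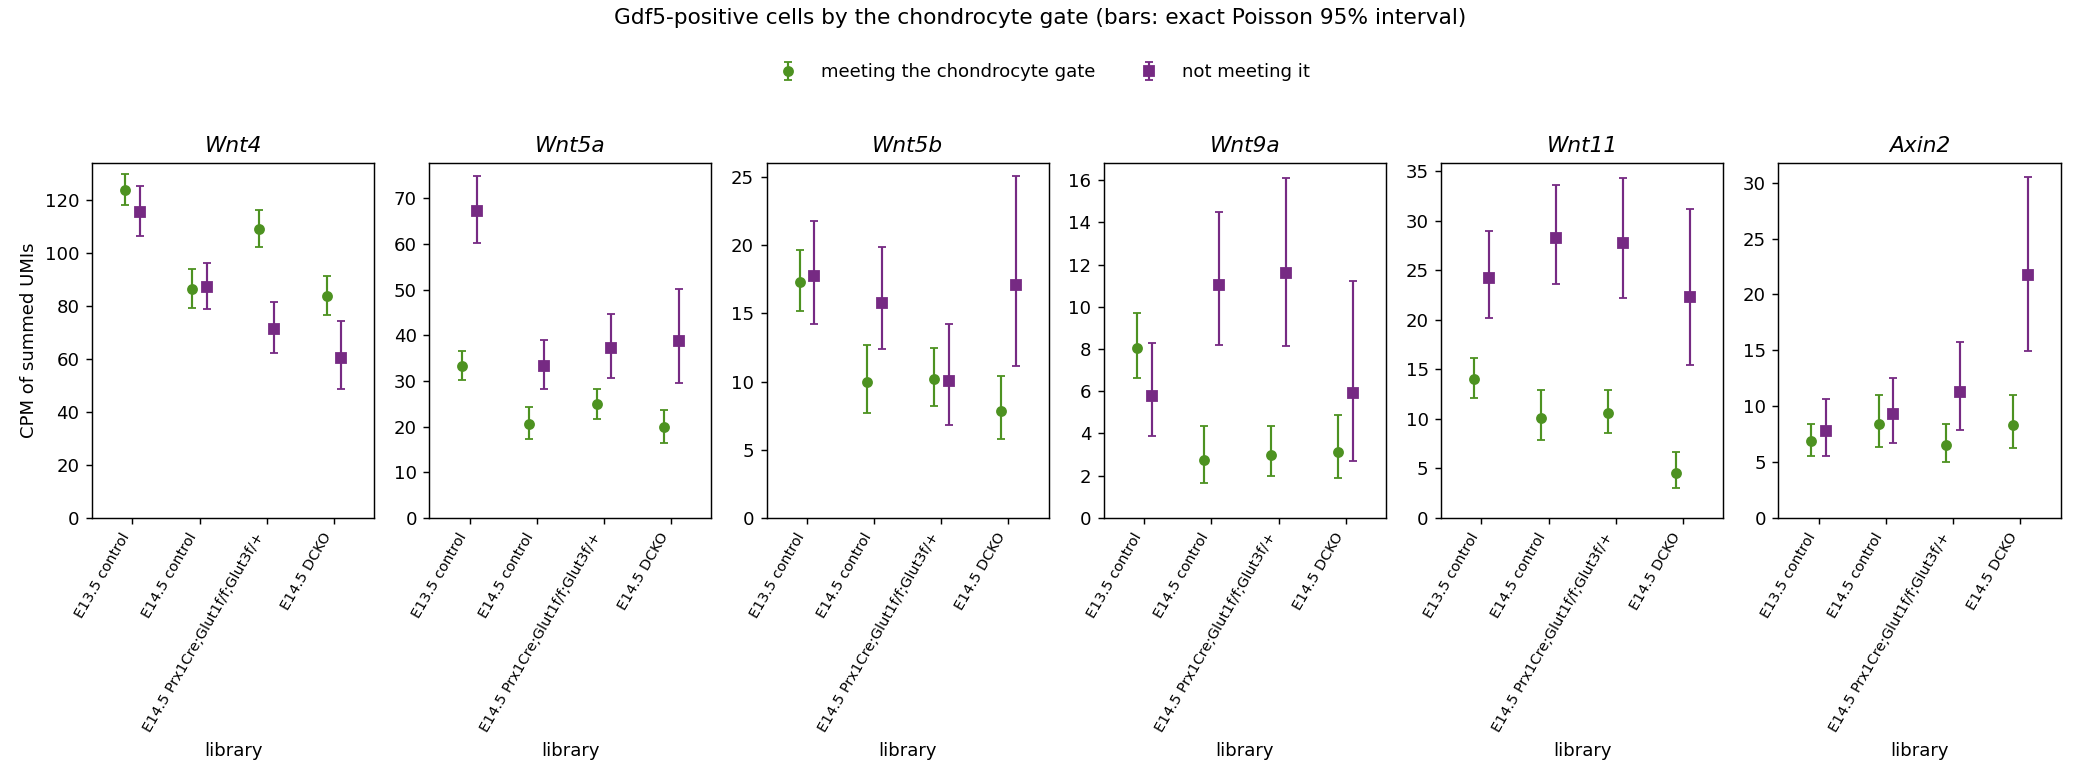
CPM of 6 genes in Gdf5-positive cells that met the chondrocyte gate and that did not, for each of the 4 libraries, with exact Poisson 95% intervals as bars. Wnt11 and Wnt5a are higher outside the gate in all 4 libraries, and Wnt9a is so in the E14.5 control and the Glut3f/+ library with intervals apart.

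The 2 control libraries compare E14.5 with E13.5, a time over which the interzone matures, and they also differ in sex. In Gdf5-positive cells 0 of 6 members with enough UMIs were called higher beside 9.2% of all genes, and 1, Wnt5a, was called lower beside 11.9%, which is close to the background. In other skeletal cells 0 of 7 were higher beside 10.3% and 3, Wnt5a, Wnt11 and Wnt16, were lower beside 17.8%, a larger share than the background on few genes. That pool held more Matn1-positive chondrocytes at E14.5 (47.7 against 13.3% of skeletal cells), and by single class Wnt11 was called lower in 0 of 9 classes. Member medians were −0.38 and −0.54 on the log2 scale, against −0.07 and −0.16 over all genes. TMM scaling would add 0.15 to every log2 ratio in other skeletal cells. The ratios in Gdf5-positive cells stand beside the smaller share of cells within the chondrocyte gate at E14.5 (49.96 against 73.8%), and the part of this share in them was not tested. By class, the background between the ages was 6.32% higher and 19% lower in prehypertrophic or hypertrophic cells, 10.4% higher and 14.7% lower in Matn1-positive chondrocytes and 8.48% higher and 14.4% lower in Matn1-negative chondrocytes. The mesenchymal classes had 10.7% higher and 9.31% lower in tendon, 7.48% higher and 23% lower in osteogenic cells, 8.8% higher and 12.5% lower in Dcn-positive fibroblasts, 10.5% higher and 11.4% lower in Sfrp2-positive mesenchyme and 8.74% higher and 21% lower in other mesenchyme. The pools had 10.1 and 17.2% in all skeletal, 9.19 and 16% in chondrocyte-gated and 11.1 and 10.1% in mesenchyme-gated cells, again higher then lower. The calls of single members by class below are read beside these shares.

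Wnt5a in Gdf5-positive cells went from 42.3 CPM at E13.5 to 25.8 at E14.5, a log2 ratio of −0.71 (−0.91 to −0.52). The call ended with the mean of CPM over single cells (−0.53) and with at least 2 Gdf5 UMIs (−0.57). In other skeletal cells Wnt5a went from 79.4 to 32.1 CPM, −1.30 (−1.38 to −1.23), or −1.15 with TMM scaling. Chondrocyte-gated cells went from 70.2 to 21.8 CPM of Wnt5a, −1.68 (−1.79 to −1.58), and mesenchyme-gated cells from 89.1 to 67.4, −0.40 (−0.51 to −0.29), which did not pass the threshold. The ratio was thus further from 0 in cartilage, with intervals apart, and the difference was not tested. By class the Wnt5a ratio was below 0 in 9 of 9 classes and was called lower in 4 of them, Gdf5-positive, Matn1-positive (−1.71), Matn1-negative (−1.30) and prehypertrophic or hypertrophic cells (−1.01). Osteogenic cells (−0.16) and other mesenchyme (−0.13) were nearest to 0. The median over all genes was also below 0 in each class. At −0.233 in osteogenic cells and −0.194 in other mesenchyme, that median was below the Wnt5a ratio.

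Wnt4 in Gdf5-positive cells was at 122 and 86.7 CPM, −0.49 (−0.60 to −0.38), which did not pass the threshold, though with at least 2 Gdf5 UMIs it was −0.66 and did. Its ratio in other skeletal cells was −0.07, and TMM scaling turned it to 0.09. Wnt11 had 0.07 in Gdf5-positive cells, while in other skeletal cells it went from 13.4 to 8.75 CPM, −0.62 (−0.78 to −0.46), a call that ended with TMM scaling (−0.46) and with the mean of CPM over single cells (−0.48). Over chondrocyte-gated cells Wnt11 was called lower, with 8.76 and 5.01 CPM and a ratio of −0.81 (−1.06 to −0.55), and mesenchyme-gated cells had 0.23. No single class was called lower for Wnt11, and the chondrocyte classes had 0.02 (prehypertrophic or hypertrophic), −0.40 (Matn1-positive) and −0.25 (Matn1-negative). In Sfrp2-positive mesenchyme Wnt11 rose from 18.1 to 32.8 CPM, 0.86 (0.55 to 1.17), and was also called higher in osteogenic cells at 0.89 (−0.16 to 1.90). Wnt9a in tendon cells rose from 6.38 to 14.6 CPM, 1.19 (0.50 to 1.92). It was called lower in osteogenic cells at −0.63 (−2.39 to 0.82), in Sfrp2-positive mesenchyme at −0.59 (−1.35 to 0.11) and over chondrocyte-gated cells at −0.64 (−1.12 to −0.16), the first 2 with intervals that span 0. No single chondrocyte class was called for Wnt9a, with −0.43 in Matn1-positive and 0.08 in Matn1-negative cells and too few UMIs in the prehypertrophic or hypertrophic class. The Wnt9a ratio in Gdf5-positive cells was −0.26 (−0.70 to 0.16), or 0.10 with at least 2 Gdf5 UMIs. Wnt5b rose from 8.36 to 15 CPM in prehypertrophic or hypertrophic cells, 0.84 (0.39 to 1.29), and was at −0.49 (−0.79 to −0.20) in Gdf5-positive cells. Wnt16 in other skeletal cells was called lower, with 56 and 31 UMIs and a ratio of −0.91 (−1.59 to −0.25), and the mean of CPM over single cells (−0.50) ended that call. Mesenchyme-gated cells, with 42 and 27 of these Wnt16 UMIs, had 1.46 and 1.93 CPM, 0.41 (−0.35 to 1.14), so the pooled ratio did not hold in them.

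Axin2 differed by class between the ages. It fell in prehypertrophic or hypertrophic cells from 19.9 to 8.75 CPM, −1.19 (−1.65 to −0.74), and in Matn1-positive chondrocytes from 10.4 to 5.70, −0.86 (−1.20 to −0.52). In Sfrp2-positive mesenchyme Axin2 rose from 5.70 to 11.1 CPM, 0.96 (0.40 to 1.51). Gdf5-positive cells were at 7.12 and 8.79 CPM, 0.30, with overlapping intervals.

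The 2 mutant libraries were each compared with the E14.5 control, which they share, so the 2 comparisons are not independent. They set libraries labelled for removal of glucose transporters beside a control that also differs in sex. Glucose uptake is not measured by these counts. For the library with the Prx1Cre;Glut1f/f;Glut3f/+ label, 0 of 6 members were called higher in Gdf5-positive cells beside 2.75% of all genes and 0 lower beside 6.99%. Other skeletal cells gave 0 of 7 in either direction, beside 4.84% higher and 4.01% lower. In the library labelled DCKO, 0 of 6 were called higher in Gdf5-positive cells beside 3.31%, and 2, Wnt9a and Wnt11, were called lower beside 15% of all genes. Other skeletal cells of that library had 0 of 7 higher beside 4.34% and 2, Wnt5b and Wnt11, lower beside 11.9%. These shares of 2 genes exceeded a background that itself leaned to lower values. Member medians in the Glut3f/+ library were −0.21 in Gdf5-positive and 0.04 in other skeletal cells, against −0.12 and −0.07 over all genes, and in the DCKO library −0.24 and −0.46, against −0.17 and −0.18. TMM scaling would add 0.12 to the log2 ratios in Gdf5-positive cells of the Glut3f/+ library, and 0.16 and 0.17 to those in Gdf5-positive and other skeletal cells of the DCKO library. 

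Among all genes, the shares called by class in the Glut3f/+ library were 6.59% higher and 7.14% lower in prehypertrophic or hypertrophic cells, 4.66% higher and 5.63% lower in Matn1-positive chondrocytes and 3.27% higher and 7.66% lower in Matn1-negative chondrocytes. Its mesenchymal classes had 2.9% higher and 6.27% lower in tendon, 5.63% higher and 5.37% lower in osteogenic cells, 4.67% higher and 4.25% lower in Dcn-positive fibroblasts, 3.47% higher and 4.79% lower in Sfrp2-positive mesenchyme and 6.86% higher and 5% lower in other mesenchyme. Its pools had 4.28 and 4.31% in all skeletal, 5.07 and 5.62% in chondrocyte-gated and 3.2 and 3.54% in mesenchyme-gated cells, again higher then lower. For the DCKO library they were 7.42% higher and 18.6% lower in prehypertrophic or hypertrophic cells, 5.12% higher and 12.3% lower in Matn1-positive chondrocytes and 5.06% higher and 11.9% lower in Matn1-negative chondrocytes. Tendon and the mesenchyme there had 2.44% higher and 10.6% lower in tendon, 6.47% higher and 5.65% lower in osteogenic cells, 4.79% higher and 6.85% lower in Dcn-positive fibroblasts, 3.23% higher and 7.29% lower in Sfrp2-positive mesenchyme and 5.85% higher and 7.41% lower in other mesenchyme. Pooled, they were 4.08 and 13% in all skeletal, 6.13 and 13.1% in chondrocyte-gated and 2.63 and 5.7% in mesenchyme-gated cells, again higher then lower. Single members called by class in what follows are read beside these shares.

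Wnt11 in Gdf5-positive cells was at 17.7 CPM in the E14.5 control, 15 in the Glut3f/+ library and 8.13 in the DCKO library. Its log2 ratio to the control was −0.24 in the Glut3f/+ library and −1.12 (−1.56 to −0.70) in the library labelled DCKO, or −0.96 with TMM scaling. The DCKO level lay below both others, whose intervals overlapped. In other skeletal cells Wnt11 had 8.75, 8.41 and 4.73 CPM, with ratios of −0.06 (0.01 with TMM scaling) and −0.89 (−1.08 to −0.69, and −0.72 with TMM scaling). By class, in the DCKO library Wnt11 was called lower in 5 of 7 classes with enough UMIs, among them prehypertrophic or hypertrophic cells at −1.24 (−1.71 to −0.78) and Sfrp2-positive mesenchyme at −0.96 (−1.38 to −0.55). Dcn-positive fibroblasts were level at 23.4 and 25.3 CPM of Wnt11, 0.11 (−0.42 to 0.65). In the Glut3f/+ library the only called class was other mesenchyme, which rose from 12 to 22.5 CPM, 0.90 (0.07 to 1.81).

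The share of Gdf5-positive cells within the chondrocyte gate was 49.96% in the E14.5 control, 66.5% in the Glut3f/+ library and 72.7% in the DCKO library, and its part in these ratios was not tested. Set out by gate, Wnt11 went from 10.1 CPM in the control to 4.58 in the DCKO library within the gate, with intervals apart, and from 28.3 to 22.4 outside it, with intervals that overlapped. Osr2 in the class also went from 197 to 70.9 CPM and Gdf5 itself from 250 to 161.

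Wnt9a in Gdf5-positive cells had 6.19 CPM in the E14.5 control, 5.18 in the Glut3f/+ library and 3.67 in the DCKO library. The 2 ratios were −0.26 and −0.75 (−1.44 to −0.10), and the second was near the threshold with TMM scaling at −0.59 and with at least 2 Gdf5 UMIs at −0.61. The intervals of all 3 levels overlapped. Set out by gate, Wnt9a had 2.76 CPM in the control and 3.11 in the DCKO library within the chondrocyte gate, and 11.0 and 5.92 outside it. The lower level was thus seen outside the gate, on 51 and 9 UMIs with overlapping intervals, and not within it. Cells outside the gate were 651 of 1301 in the control and 237 of 868 in the DCKO library. Over all skeletal cells Wnt9a was at 3.62, 4.25 and 2.38 CPM, with a ratio of −0.60 (−0.88 to −0.34) in the DCKO library. The pools did not pass the threshold there, at −0.04 in chondrocyte-gated and −0.48 in mesenchyme-gated cells, and Matn1-positive chondrocytes had 0.10 and Sfrp2-positive mesenchyme 0.46. Tendon in that library fell to 7.50 from 14.6 CPM, −0.96 (−1.83 to −0.16), and Matn1-negative chondrocytes were called lower at −0.67 (−1.55 to 0.21). In the Glut3f/+ library Wnt9a rose in Sfrp2-positive mesenchyme from 4.60 to 10.3 CPM, 1.17 (0.44 to 1.94).

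Wnt5b was at 12.4, 10.1 and 9.70 CPM in Gdf5-positive cells of the E14.5 control, the Glut3f/+ library and the DCKO library, with overlapping intervals and ratios of −0.29 and −0.35. In other skeletal cells it had 12, 9.13 and 7.87 CPM, and the ratios were −0.39 (−0.54 to −0.24) and −0.60 (−0.76 to −0.45). The second was called, but TMM scaling (−0.43) and the mean of CPM over single cells (−0.58) ended the call. By class Wnt5b was below 0 in 8 of 8 classes in the Glut3f/+ library, with 2 called, Matn1-negative chondrocytes (−0.82) and Sfrp2-positive mesenchyme (−0.62). It was below 0 in 7 of 7 classes of the DCKO library, with 3 called, the chondrocyte classes at −0.69 (prehypertrophic or hypertrophic), −0.64 (Matn1-positive) and −0.65 (Matn1-negative). The medians over all genes were also below 0 in these classes. They ran from −0.124 to −0.004 in the Glut3f/+ library and from −0.186 to −0.033 in the DCKO library.

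Wnt4 in Gdf5-positive cells had ratios of 0.20 (0.07 to 0.32) in the Glut3f/+ library and −0.13 (−0.28 to 0.01) in the DCKO library, and TMM scaling turned the latter to 0.03. Neither was called. In prehypertrophic or hypertrophic cells Wnt4 rose from 113 to 175 CPM in the library with the Prx1Cre;Glut1f/f;Glut3f/+ label, 0.63 (0.50 to 0.76), and stood at 155 in the DCKO library, 0.45 (0.32 to 0.58), below the threshold. Tendon at −0.77 (−1.38 to −0.19) and other mesenchyme at −0.79 (−1.73 to 0.12, on 18 and 28 UMIs) were the 2 classes in which Wnt4 was called lower in the DCKO library, the second with an interval that spans 0. Their levels of 15 and 12.2 CPM there stood beside 4.22 in muscle and 20.8 in macrophages, on 3 and 10 UMIs. Wnt5a was called in 0 of 9 classes in both mutant libraries. Its ratios in Gdf5-positive cells were 0.12 and −0.13, and TMM scaling turned the second to 0.03.

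Wnt16 passed the threshold in mesenchyme-gated cells of the DCKO library, where it rose from 1.93 to 3.58 CPM, 0.89 (0.16 to 1.64). Axin2 had 8.79, 7.74 and 11.0 CPM in Gdf5-positive cells of the E14.5 control, the Glut3f/+ library and the DCKO library, with ratios of −0.18 and 0.33 (−0.11 to 0.76), and with at least 2 Gdf5 UMIs the second was 0.96 and passed the threshold. Axin2 fell in the DCKO library in prehypertrophic or hypertrophic cells from 8.75 to 3.54 CPM, −1.30 (−1.92 to −0.70), and over chondrocyte-gated cells the ratio was −0.61 (−0.85 to −0.36). Other mesenchyme of that library was higher at 17.6 against 8.26 CPM, 1.09 (0.03 to 2.26). Axin2 was called in 0 of 8 classes in the Glut3f/+ library.

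**Figure D3:**
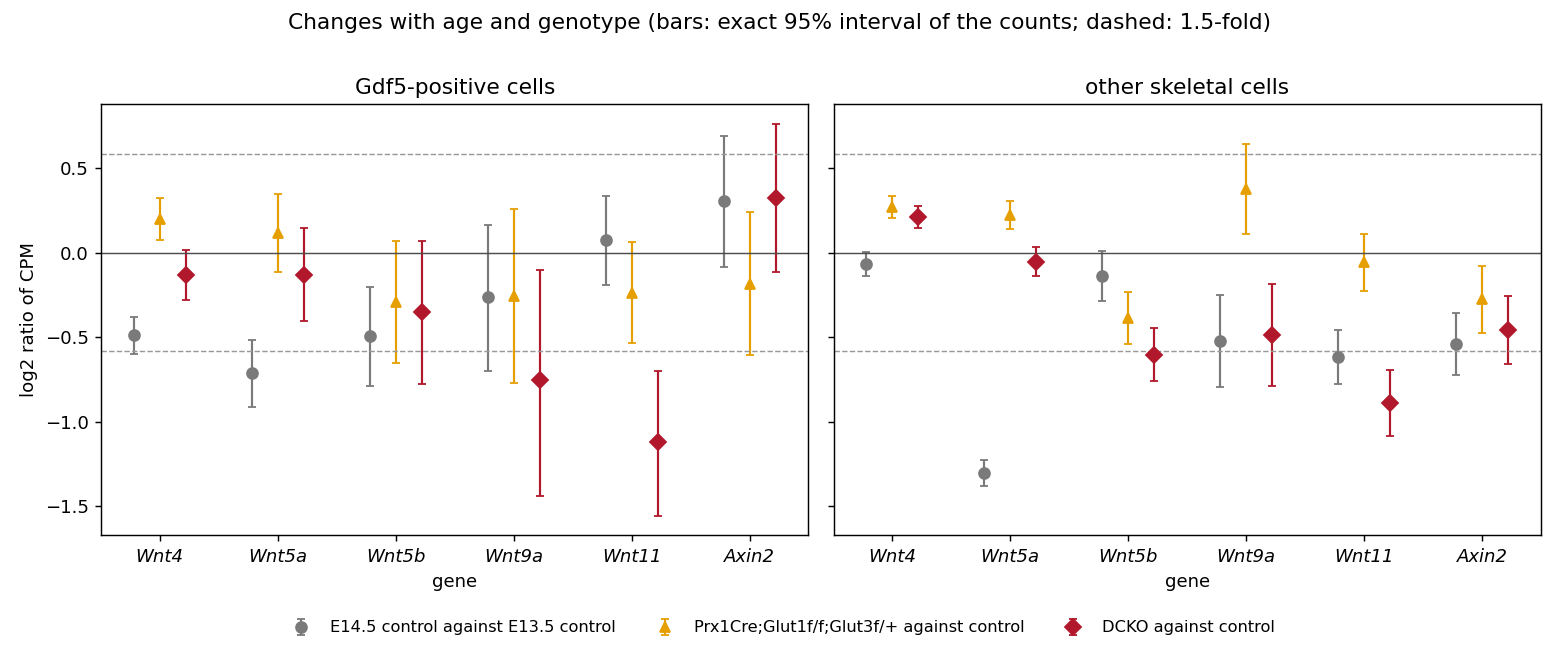
Log2 ratios of Wnt4, Wnt5a, Wnt5b, Wnt9a, Wnt11 and Axin2 between libraries, in Gdf5-positive and in other skeletal cells. The ratios are E14.5 control over E13.5 control, and each mutant library over the E14.5 control. Bars are exact conditional 95% intervals and dashed lines are at 1.5-fold. Wnt16 is not drawn. Wnt11 is at −1.12 and −0.89 in the DCKO library, and Wnt5a is at −0.71 and −1.30 between the ages.

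The other genes of the Wnt pathway were followed as 66 genes in 7 lists: 11 other ligands, 2 ligand release genes, 16 receptors, 9 genes of the R-spondin branch, 10 intracellular genes, 7 feedback and target genes and 11 secreted inhibitors. Between Gdf5-positive and other skeletal cells, 6 of 52 with enough UMIs were called higher and 15 lower at E13.5, beside 8.3 and 9.33% of all genes. The E14.5 control had 11 and 11 of 52 beside 12.1 and 8.33%. In the Glut3f/+ library 7 were higher and 10 lower of 51 beside 8.72 and 8.87%, and in the DCKO library 8 and 6 of 50 beside 10.1 and 6.73%. The lower calls at E13.5 were furthest above their background. Their median log2 ratios were −0.08, 0.07, −0.02 and 0.15. At E13.5 the calls per list were 0 higher and 1 lower of 1 other ligand, 0 and 0 of 2 release genes, 3 and 1 of 16 receptors, 1 and 4 of 8 R-spondin branch genes, 0 and 4 of 6 feedback genes and 2 and 5 of 9 inhibitors. The E14.5 control had 1 and 0 of 2, 2 and 0 of 2, 4 and 1 of 15, 1 and 3 of 7, 1 and 1 of 6, and 2 and 6 of 10 in the same order. The 10 intracellular genes gave 0 calls in every comparison made here.

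Lgr5, a receptor for R-spondins, differed between the same classes, at 19.9, 34.4, 12.4 and 4.33 CPM in Gdf5-positive cells and 3.70, 6.56, 4.32 and 2.37 in other skeletal cells. Dkk3, a secreted protein of the Dickkopf family, had 32.8, 118, 66.7 and 39.1 CPM in Gdf5-positive and 10.3, 24.3, 17.7 and 13.7 in other skeletal cells. Both were called higher in the Gdf5-positive class in all 4 libraries. Fzd8, a Frizzled receptor, was among the highest at E13.5 with 71.7 against 29.7 CPM, a log2 ratio of 1.27. Lef1, a transcription factor that works with β-catenin, was lower at E13.5 with 8.39 against 28.7 CPM, −1.77 (−2.02 to −1.54), and Dkk2, an inhibitor, was lower with 9.03 against 28.1. Rspo3, an R-spondin that amplifies Wnt signals, had 16.6 against 46.5 CPM in the E14.5 control. In the DCKO library Notum, a secreted enzyme that inactivates Wnt ligands and a target of the pathway, was furthest up at 8.91 against 2.65 CPM, 1.75. Sfrp2 was also higher in the Gdf5-positive class in each library, but it is a gating marker.

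Between the ages 10 of 47 pathway genes were called higher and 2 lower in Gdf5-positive cells, beside 9.2 and 11.9% of all genes, and 12 and 15 of 54 in other skeletal cells, beside 10.3 and 17.8%. In Gdf5-positive cells Lef1 rose from 8.39 to 32.8 CPM, 1.97, Notum from 2.39 to 8.97, 1.91, and Dkk3 from 32.8 to 118, 1.85, while Rspo3 fell from 41.8 to 16.6, −1.33. In other skeletal cells Fzd10 (−3.06) and Dkk1 (−1.94) were furthest down and Sfrp5 (3.15) and Sfrp4 (2.20) furthest up. Against the E14.5 control the Glut3f/+ library had 1 higher and 5 lower of 46 in Gdf5-positive cells, beside 2.75 and 6.99% of all genes, and 3 and 5 of 52 in others, beside 4.84 and 4.01%. The DCKO library had 4 and 10 of 46, beside 3.31 and 15%, and 0 and 14 of 52, beside 4.34 and 11.9%. In Gdf5-positive cells Lgr5 went from 34.4 CPM to 12.4 in the Glut3f/+ library, −1.47 (−1.75 to −1.19), and to 4.33 in the DCKO library, −2.99 (−3.55 to −2.47). Dkk3 went from 118 to 66.7, −0.83, and to 39.1, −1.60. Ror2, a receptor for Wnt5a, rose from 13.8 to 25.3 CPM in the DCKO library, 0.87. In the other skeletal cells of the DCKO library Tcf7 (−1.76) and Lgr5 (−1.47) were furthest down.

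Genes with a like pattern were sought by the Pearson r of log2(CPM + 1) over 52 sums of a class in a library, among 9466 genes with at least 20 CPM in any sum. The sums of a library share its depth and processing, so r is a description. Wnt4 was most like Cpe (0.850), Me1 (0.831) and Nfatc2 (0.815). For Wnt5a these were Prrx1 (0.919), Mme (0.910) and Prrx2 (0.90), for Wnt5b Rab23 (0.831), Sulf2 (0.825) and Tenm3 (0.821), and for Wnt9a Meox2 (0.877), Ptn (0.867) and Fbln5 (0.865). Wnt11 was nearest to Sulf2 (0.836), Dnajb2 (0.835) and Adgrl3 (0.830), and Axin2 to Rcor3 (0.782), Nkd1 (0.779), itself a feedback inhibitor of the pathway, and Cmtm4 (0.770). Wnt16 had Thbs2 (0.851), Col1a2 (0.847) and Nell2 (0.841), Wnt10b had Smpd3 (0.744), Ibsp (0.689) and Ifitm5 (0.653), and Wnt2b had Ibsp (0.539) and Pcp4 (0.481), but these 3 ligands were too sparse for the values to be read. Col1a2 and Ibsp are also gating markers, and Prrx1 was a listed marker that set no gate.

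Promoter sequences from RefSeq (GRCm38.p6, 250 bases before to 50 after a start) were found for 8 of the 9 members, in 11 windows of 300 bases. They were searched on both strands for CTTTGA, the core letters bound by TCF and LEF factors, which reads TCAAAG on the other strand. Wnt11 and Wnt5b each had 1 window with a match, 2 of the 11, beside 16% of 32851 windows of all genes. Wnt9a (chr11:59306680-59306979) and Wnt11 (chr7:98834862-98835161) are printed because both were higher in Gdf5-positive than in chondrocyte-gated cells and were called lower in the Gdf5-positive cells of the DCKO library, and Axin2 (chr11:108920099-108920398) because it is the feedback target. All 3 are on the + strand and capitals mark the match, which begins at base 201 of the Wnt11 window. A match is a description of letters and not a site, and a window without these letters says nothing of the factors.
Wnt9a: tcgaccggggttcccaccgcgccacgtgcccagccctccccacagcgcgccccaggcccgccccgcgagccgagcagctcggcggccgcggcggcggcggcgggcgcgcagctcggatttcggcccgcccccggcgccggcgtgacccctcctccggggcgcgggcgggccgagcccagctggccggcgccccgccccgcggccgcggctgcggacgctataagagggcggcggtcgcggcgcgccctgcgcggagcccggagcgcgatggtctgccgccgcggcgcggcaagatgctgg
Wnt11: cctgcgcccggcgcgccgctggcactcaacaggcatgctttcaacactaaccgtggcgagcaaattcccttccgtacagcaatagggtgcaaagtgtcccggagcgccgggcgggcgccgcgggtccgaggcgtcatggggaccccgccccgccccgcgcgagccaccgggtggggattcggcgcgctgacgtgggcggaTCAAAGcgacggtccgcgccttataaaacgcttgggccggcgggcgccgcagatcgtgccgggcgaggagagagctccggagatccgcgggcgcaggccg
Axin2: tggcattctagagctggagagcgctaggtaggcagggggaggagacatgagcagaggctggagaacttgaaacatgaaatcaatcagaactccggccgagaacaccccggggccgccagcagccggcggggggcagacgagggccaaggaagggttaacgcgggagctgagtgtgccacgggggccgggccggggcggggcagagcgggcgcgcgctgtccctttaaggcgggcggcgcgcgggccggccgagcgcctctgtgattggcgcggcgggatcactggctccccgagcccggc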

How the data were processed

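The deposited counts are UMI counts per gene and barcode that the authors made with Cell Ranger 6.1.2 on mm10; the annotation version is not given in the sources used here. Coordinates came from GENCODE M21, which matched 32235 of 32285 gene identifiers. The members and gene lists were chosen with earlier results of these data known, and the gate thresholds were set after marker counts were seen. A lineage gate needed at least 3 markers for most non-skeletal classes (5 for glial or neuronal, 4 for mural, and 5% of UMIs for erythroid). Skeletal gates needed 3 of 13 chondrocyte, 2 of 6 tendon, 2 of 8 osteogenic or 3 of 7 fibroblast markers. The chondrocyte gate also needed more UMIs of chondrocyte than of fibroblast markers. Tendon also needed a Scx or Tnmd UMI, and osteogenic cells a Runx2 UMI. A cell went to the first gate it met. CPM levels are given for classes of at least 50 cells. Shares of cells are also given for the 42 erythroid cells of the DCKO library. From the skeletal sums 815, 276, 392 and 380 unassigned cells were left out. Cells flagged for markers of 2 lineages (52, 46, 90 and 25) were kept. The flag did not cover every non-skeletal cell that also met the chondrocyte gate. In the E13.5 control 93 differentiating muscle cells met that gate. UMIs were summed by class and library, scaled to CPM and given with exact Poisson intervals, ratios with exact conditional binomial intervals, and shares with exact Clopper-Pearson intervals. No test was run, because each condition had 1 library. Named pathway genes were drawn from the up to 4 furthest in each direction per comparison among those called, and 1 gene with a pattern like a member's is not reported here. Alternatives were a stricter cell filter, the flagged cells left out as doublets, 1 more marker per gate, at least 2 Gdf5 UMIs and TMM factors. Others were the mean of CPM over single cells, no minimum or 50 UMIs, 2-fold, and cells thinned to 4000 UMIs or not at all. The code was tested on simulated data. Python 3.11.15, numpy 2.4.6, scipy 1.17.1, pandas 2.3.3, matplotlib 3.10.9, R 4.3.3 and edgeR 4.0.16 were used.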

Additional observations from a re-analysis of the deposited data

Results flagged for a closer look

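Axin2 was called in opposite directions in different classes of the same comparison. Between the E14.5 and E13.5 controls its log2 ratio was 0.96 in Sfrp2-positive mesenchyme, −1.19 in prehypertrophic or hypertrophic cells and −0.86 in Matn1-positive chondrocytes. Between the DCKO library and the E14.5 control it was 1.09 in other mesenchyme and −1.30 in prehypertrophic or hypertrophic cells. The difference was not tested in either case, since each condition had 1 library.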

How the results depend on the processing

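Of the member counts per comparison, highest class levels and shares of cells, 193 values under an alternative kept to the counting interval or within 1.5 times the count and 59 did not, and of the single ratios 367 did and 34 did not. None reversed a called direction. A stricter cell filter, leaving out the cells flagged for 2 lineages and a minimum of 50 UMIs moved none of these values beyond that bound. The stricter filter and the minimum of 50 each left 2 members in place of 3 higher in Gdf5-positive cells of the Glut3f/+ library. The cause of the other moves was not tested unless named. For Gdf5-positive against other skeletal cells, at least 2 Gdf5 UMIs gave 2 members lower at E13.5, 1 in the E14.5 control and 1 in the Glut3f/+ library. The mean of CPM over single cells gave 1 lower in the DCKO library. With no minimum of UMIs, which lets members with few UMIs in, 2 were lower at E13.5, 1 in the E14.5 control and 1 in the DCKO library, and 5 were higher in the Glut3f/+ library. At 2-fold 1 was higher and 0 lower at E13.5, and 1, 0 and 1 were higher in the E14.5 control, the Glut3f/+ library and the DCKO library. Between the ages, the mean of CPM gave 0 lower in Gdf5-positive and 1 in other skeletal cells, no minimum gave 2 lower in Gdf5-positive cells, and 2-fold gave 0 and 1. In the Glut3f/+ library against control, no minimum gave 3 higher in Gdf5-positive and 1 in other skeletal cells. In the DCKO library against control, Gdf5-positive cells gave 1 higher with at least 2 Gdf5 UMIs, 1 higher with no minimum and 1 lower at 2-fold, and other skeletal cells gave 1 lower with TMM factors, 1 higher and 1 lower with the mean of CPM, 1 higher with no minimum and 0 lower at 2-fold. With 1 more marker per gate, Wnt5a in osteogenic cells at E13.5 was 126 CPM. Shares of Gdf5-positive cells with a UMI move with depth by construction. Unthinned they were 37.0, 30.4, 32.7 and 31.0% for Wnt4, 22.4, 16.3, 16.8 and 16% for Wnt5a, 5.59, 5.15, 3.26 and 3.11% for Wnt9a and 10.7, 12.8, 9.98 and 5.99% for Wnt11. Thinned to 4000 UMIs they were 27.6, 21, 22.7 and 20.3% for Wnt4, 13.1, 8.28, 9.35 and 8.63% for Wnt5a, 3.0, 2.75 and 1.84% for Wnt9a and 6.18, 6.97 and 5.79% for Wnt11, the last 2 in the first 3 libraries. No paired or replicated analysis was possible because each condition had 1 library. Sex differed along with genotype, Slc2a1 UMIs went against the labels, and Wnt16, Wnt10b and Wnt2b had too few UMIs for most comparisons.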
